A study of Rattus norvegicus with 16 samples.

Results

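miR-218 is a microRNA made from a pair of precursors that lie inside introns of Slit2 and Slit3, the genes of secreted guidance proteins. Both precursors give the same mature strand, so an array probe cannot tell which locus a molecule came from. The array carried 3 names for products of these precursors among its 677 rat miRNAs: miR-218 itself and the star arms miR-218-1* and miR-218-2*, which come from the opposite side of each hairpin. miR-218 was detected and the star arms were not. It is listed as rno-miR-218 and was chosen by its measured difference between the strains, with how that difference depends on scaling and background subtraction, so its strain values are given here as a description, with no test.

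Hearts of rat pups were collected at 2 days of age from HHR, the Hypertrophic Heart Rat, and from NHR, the Normal Heart Rat, which served as its normal-sized counterpart. The groups were HHR males, HHR females, NHR males and NHR females, with 4 animals each, no treatment, and 1 single-colour array per animal without pooling, so that replicates are separate animals. Each labelling used 100 ng of total RNA. The strains are separate breeding lines and not carriers of a single altered gene, and the labels give no heart weights. For the tissue, one label says that the heart was taken entire and another that the ventricles were cut free of the atria. The arrays were on 2 slides, and each slide held 2 arrays of every group.

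Slit proteins are secreted and bind Robo receptors on the cell surface, a system first known for steering growing axons and later found in the migration of heart and vessel precursors. miR-218 is transcribed with its host genes and lowers Robo1 and Robo2, so a host gene and its miRNA act on ligand and receptor of the same pathway. In zebrafish, this loop is needed for the heart field cells to migrate and form the heart tube. A miRNA recognises its targets mainly through its seed, bases 2 to 8 from the 5′ end.

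The mature sequences of the loci are shown because the seeds decide which targets each arm could bind, and because the last of them mirrors miR-218. They come from RefSeq with the GRCr8 assembly, in which all 4 of the array names looked up were found, and capitals mark the seed. RefSeq calls miR-218 by the newer name miR-218a-5p.
miR-218: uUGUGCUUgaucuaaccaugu
miR-218-1*: aAACAUGGuuccgucaagcac
miR-218-2*: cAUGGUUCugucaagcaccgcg
miR-3565: cAUGGUUAgaucaagcacaa
miR-3565, which RefSeq lists as miR-218b, is read at the mir-218-1 locus from the strand opposite to that hairpin (the strand of Slit2 itself was not given in the tables used here), and all 20 of its bases are complementary to miR-218. It is no star arm and was looked at beside them. Of the 693 mature names in the RefSeq table, only 1 carries the miR-218 seed, so no family member shares it there. The seeds of the star arms differ from it and from each other, although the star arms share a run of 9 bases.

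The hairpins are shown to make plain how far the loci agree outside the mature strand, which is in capitals here. The Slit2 hairpin lies at chr14:66922348-66922457 on the minus strand, and the Slit3 hairpin at chr10:20572523-20572632 on the plus strand, the strand of Slit3 itself.
mir-218-1 (Slit2): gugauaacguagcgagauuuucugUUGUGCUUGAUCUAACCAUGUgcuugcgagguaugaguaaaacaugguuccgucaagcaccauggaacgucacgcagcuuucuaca
mir-218-2 (Slit3): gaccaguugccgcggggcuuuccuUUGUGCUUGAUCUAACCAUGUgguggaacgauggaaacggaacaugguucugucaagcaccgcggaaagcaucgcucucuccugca
Each hairpin is 110 bases long and holds the 21-base mature strand once. In a global alignment, 83 of 119 columns (69.7%) were identical. The loci can therefore be told apart by their star arms and loops, not by miR-218.

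Levels below are processed spot signals, scaled so that the 75th percentile of signal over 258 probes well above background on every array was equal, and given as linear intensities or as log2 of them. In HHR males, miR-218 had levels of 38.3, 38.7, 39.7 and 41.2. In HHR females the levels were 41.4, 48.6, 43.4 and 44.6. The HHR females lay above the HHR males on every array, by a narrow margin (41.4 against 41.2). In NHR males the levels were 35.1, 30.3, 31.0 and 29.7, and in NHR females they were 32.9, 32.9, 34.3 and 31.6. The sexes overlapped in NHR, where the highest level belonged to a male. All 8 HHR arrays lay above all 8 NHR arrays, and the lowest HHR array was 0.13 above the highest NHR array on the log2 scale.

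miR-218 was a dim but measurable miRNA. Before scaling, its signal averaged 47.5 ± 6.16 in HHR and 29.2 ± 6.66 in NHR (n = 8 each, SD). That was 17.0 ± 2.04 times the SD of the negative control spots in HHR and 10.6 ± 2.48 times in NHR. Of its 320 spots over all arrays, 313 were well above background. The 7 that were not all belonged to its dimmer probe and all lay on NHR arrays. NHR male 3 had 16 of 20 spots well above background. NHR female 1, NHR female 4 and NHR male 1 had 19 each, and every HHR array had 20. No spot on any array was saturated.

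**Figure D1:**
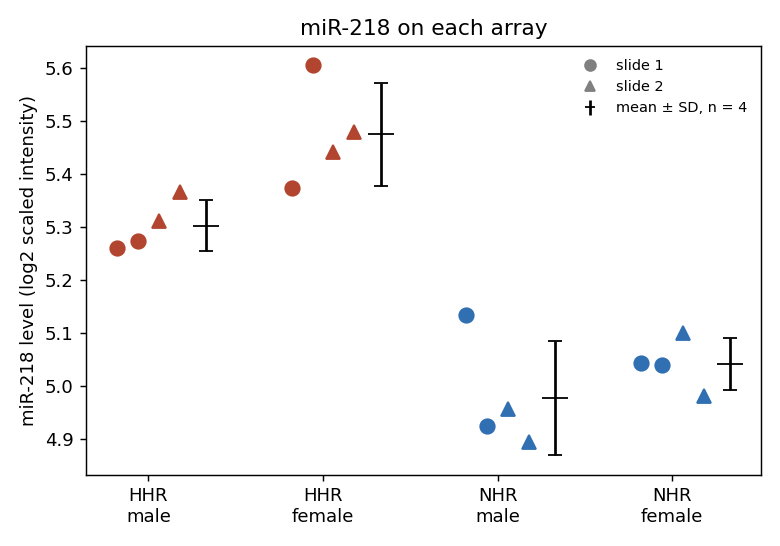
Level of miR-218 on each of the 16 arrays (log2 scaled intensity), with circles for slide 1, triangles for slide 2 and bars for the mean ± SD of each group (n = 4). Every HHR array lies above every NHR array. In HHR the females lie above the males, though the lowest female and the highest male nearly meet.

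HHR hearts had 1.30-fold higher miR-218 than NHR hearts. The level averaged 5.39 ± 0.116 in HHR and 5.01 ± 0.0846 in NHR (log2 scale, SD, n = 8 each), a difference of 0.38 ± 0.040 (SE). In a tissue extract, more cells of a type and more RNA per cell cannot be told apart. By limma with Benjamini-Hochberg adjustment, 54.5% of the 233 tested miRNAs were called between the strains, 9.01% as higher in HHR and 45.5% as lower, so a strain call is common on these arrays. All HHR arrays above all NHR arrays was seen for 7 miRNAs (3%), miR-218 among them, and a gap between the strains in either direction for 33 (14.2%).

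With the scaling used here, the difference of miR-218 stood against a general shift the other way. The median difference of all tested miRNAs was -0.11, so miR-218 lay 0.49 above it. With every other scaling tried that median was above 0, from 0.030 to 0.23. As reported, miR-218 ranked 7 from the top of the 233. Its neighbours in that order were miR-410 (0.40 ± 0.082) and miR-339-3p (0.39 ± 0.20) above it and miR-378* (0.37 ± 0.037) and miR-598-3p (0.37 ± 0.049) below it (log2 differences, SE). These 5 differences lie closer together than the SE of miR-218, so their order is not resolved. The spread of miR-218 within groups, 0.080, was below the median over all tested miRNAs, 0.12, and 85 miRNAs had a smaller spread.

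The arrays differed in overall brightness. The 75th percentile before scaling was 469.6 ± 37.3 in HHR and 378.4 ± 87.3 in NHR (n = 8 each, SD). In NHR, 3 arrays (442.7 to 502.9) were as bright as HHR arrays and 5 were dimmer (294.7 to 326.8). miR-218 averaged 4.97 (log2) on the bright NHR arrays and 5.03 on the dim ones. Set against the 3 bright NHR arrays alone, HHR was 0.42 higher as a plain difference of means. Against the 5 dim ones, HHR was 0.36 higher. With every HHR array above every NHR array, the sign of both values was fixed and only their sizes are informative.

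By sex, the strain difference was 0.33 ± 0.057 in males and 0.43 ± 0.057 in females (log2, SE, 4 arrays against 4). Within slide 1 it was 0.34 and within slide 2 it was 0.42, each with 4 arrays per strain. In the 2 against 2 arrays of one sex on one slide it was 0.24 for males on slide 1, 0.41 for males on slide 2, 0.45 for females on slide 1 and 0.42 for females on slide 2. The smallest value was that of males on slide 1. Since all HHR arrays lay above all NHR arrays, the sign was fixed in each of these subsets and only the sizes are informative.

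A pair of probes reported miR-218, each printed as 10 spots. They bind the same molecule and are not replicates of the animals. The brighter probe ran from 49.8 to 62.1 in HHR (median 53.0) and from 37.6 to 45.2 in NHR (median 41.7). The dimmer probe ran from 26.7 to 35.2 in HHR (median 29.6) and from 21.5 to 25.0 in NHR (median 22.7). HHR lay above NHR without overlap on each probe. The strain difference was 0.38 ± 0.042 by the brighter probe and 0.38 ± 0.049 by the dimmer one (log2, SE). The ratio of brighter to dimmer was 1.81 ± 0.108 in HHR and 1.82 ± 0.091 in NHR (n = 8 each, SD). The spots of the dimmer probe scattered more in NHR, with a coefficient of variation of 8.59% ± 2.40 in HHR and 14.4% ± 5.51 in NHR.

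The star arms gave no signal. Neither miR-218-1* nor miR-218-2* was detected on any of the 16 arrays, and none of their 320 spots each was well above background. The unscaled signal of miR-218-1*, the arm specific to the Slit2 locus, was -1.95 ± 0.923 in HHR and -1.60 ± 0.749 in NHR (n = 8 each, SD). That of miR-218-2*, specific to the Slit3 locus, was -1.50 ± 0.469 in HHR and -1.55 ± 1.01 in NHR. Negative values mean that the spots were no brighter than the background subtracted from them. miR-3565 was also detected on 0 arrays, with -0.760 ± 0.912 in HHR and -0.737 ± 0.512 in NHR. No fold is given for these arms, and the arrays thus do not show how the loci of Slit2 and Slit3 share in the miR-218 level.

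**Figure D2:**
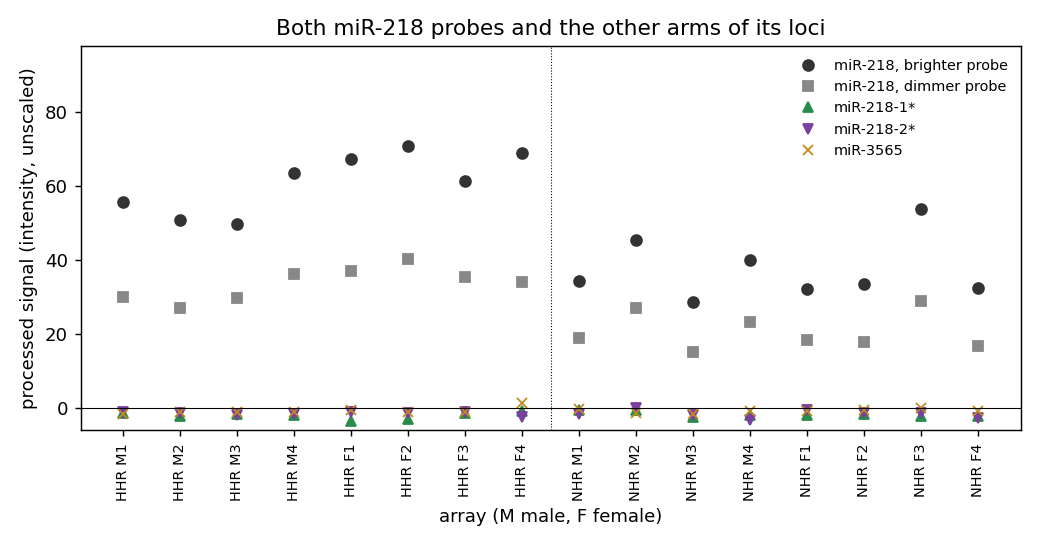
Unscaled processed signal (intensity) of the brighter and dimmer miR-218 probes, of miR-218-1*, miR-218-2* and of miR-3565 on each array, with HHR left of the dotted line and NHR right of it. Both miR-218 probes stand above 0 on all arrays, while the star arms and miR-3565 lie at or below 0 on nearly all of them.

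The sex contrast was not used in picking miR-218 and was tested. Over both strains the male minus female difference was -0.12 ± 0.040 on the log2 scale (SE, 95% interval -0.20 to -0.031, 8 males against 8 females), which did not pass the threshold (limma adjusted p = 0.252 over 233 miRNAs). In HHR alone it was -0.17 ± 0.057 (limma adjusted p = 0.227), with means of 5.30 ± 0.0477 in males and 5.47 ± 0.0971 in females (SD, n = 4 each). All 4 HHR males were below all 4 HHR females, as for 9 of the 233 miRNAs (3.86%). The margin was narrow, with the highest male at 41.2 and the lowest female at 41.4 (linear). By the dimmer probe the sexes overlapped in HHR, at 26.7 to 30.0 in males and 29.3 to 35.2 in females. In NHR the sex difference was -0.064 ± 0.057 (limma adjusted p = 0.952), with means of 4.98 ± 0.108 in males and 5.04 ± 0.0492 in females, and the sexes overlapped. By the brighter probe the sex difference was -0.14 ± 0.042, and by the dimmer probe it was -0.087 ± 0.049.

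Whether the sex difference of miR-218 passed depended on 1 array. Without NHR male 1, the highest NHR array, the difference was larger in size, at -0.14, and passed (limma adjusted p = 0.0381). Over all alternatives the adjusted p ran from 0.0381 to 1. limma called 0 of the 233 miRNAs by sex (0%), with 23 at an unadjusted p under 0.05. Without that array it called 10. The smallest p values for sex belonged to miR-421* (-0.23 ± 0.047, adjusted p = 0.0501), miR-379 (-0.28 ± 0.062, adjusted p = 0.0514) and miR-136 (-0.26 ± 0.062, adjusted p = 0.0736). All 3 had lower means in males, and miR-379 and miR-136 come from the imprinted miRNA cluster at Dlk1 and Meg3.

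Whether the strain difference of miR-218 differs between the sexes was tested by the interaction. The strain difference in males minus that in females was -0.11 ± 0.081 (log2, SE, 95% interval -0.28 to 0.066, limma adjusted p = 0.929). The interval covers 0 and also a clearly smaller difference in males, so these arrays do not show whether the sexes act alike here. limma called 0 miRNAs for the interaction (0%), with 9 at an unadjusted p under 0.05. The smallest p values belonged to miR-423* (0.40 ± 0.13), miR-30e* (0.17 ± 0.061) and miR-15b (0.15 ± 0.058), each with an adjusted p of 0.929.

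The strain difference of miR-218 depended on how the background was taken off. The median pixel signal under its spots was 117.7 ± 6.45 in HHR and 98.9 ± 5.98 in NHR (n = 8 each, SD). Negative control spots, which carry no rat miRNA, read 70.2 ± 2.63 in HHR and 69.9 ± 2.88 in NHR. The glass around the spots read 34.3 ± 2.82 in HHR and 34.6 ± 2.51 in NHR. Most of the raw signal of a miR-218 spot was thus also present on a spot with no target, the strains did not differ there beyond their spread, and the glass around a spot accounted for only part of it.

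**Figure D3:**
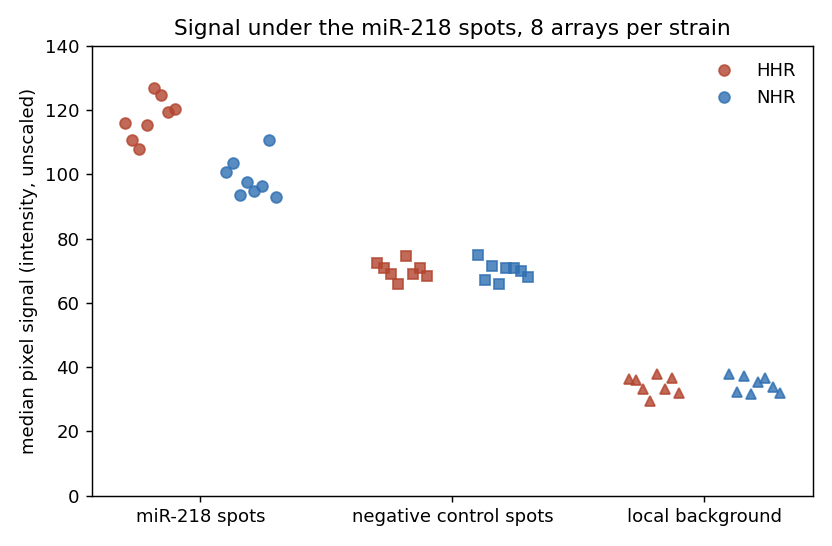
Median pixel signal (intensity, unscaled) of the miR-218 spots, the negative control spots and the local background on each array, 8 arrays per strain. The miR-218 spots of HHR lie mostly above those of NHR, while the negative control spots and the local background cover the same range in both strains.

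With the median of the negative control spots subtracted from the median signal, the strain difference was 0.40 ± 0.035, and HHR and NHR did not overlap. This setting was added after the data were seen. With the local background subtracted, it was 0.066 ± 0.061, and only 3 of 8 NHR arrays lay below the lowest HHR array. With no subtraction it was -0.031 ± 0.076, and with a normexp correction and 50 added before the arrays were scaled it was -0.017 ± 0.067, the opposite sign in both. The same normexp values with nothing added gave 0.22 ± 0.050, and with 50 added after scaling 0.11 ± 0.025. Relative to the median of all tested miRNAs under the same setting, miR-218 was higher in HHR by 0.18 with no subtraction, 0.25 with the local background and 0.18 with 50 added before scaling.

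The rank of miR-218 by strain difference ran from 4 to 24 of 233 over the background settings. It was 7 by the processed signal, 4 with normexp and nothing added, 9 with 50 added after scaling, 13 with the negative controls subtracted, 9 with the local background, 24 with no subtraction and 20 with 50 added before scaling. The scanner software's own total signal per miRNA gave 0.44 ± 0.045. In the authors' deposited log2 table, miR-218 averaged 6.86 ± 0.0851 in HHR and 6.63 ± 0.0929 in NHR (n = 8 each, SD), a difference of 0.23 ± 0.043 with rank 23, and 7 of 8 NHR arrays lay below the lowest HHR array. The star arms and miR-3565, which were not detected, reached up to 6.14 in that table, so its lower end is no zero.

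The choice of scaling changed the size but not the sign. The difference was 0.55 with median centring, 0.58 with quantile normalization, 0.62 with scaling to the spike-in controls, 0.66 with the 75th percentile over all probes and 0.72 with no scaling. The same choices moved the median of all tested miRNAs, which was -0.11 as reported, 0.030 with quantile normalization and 0.23 with no scaling. Relative to that median, miR-218 lay between 0.49 and 0.55 higher in HHR under all 6 scalings, at rank 6 to 8. Apart from quantile normalization, each scaling shifts all miRNAs of an array alike, so this distance and rank could hardly change. Only the values with quantile normalization (0.55, rank 8) are informative here. HHR and NHR overlapped only with no scaling and with the spike-in scaling. With array brightness as a covariate the difference was 0.40 ± 0.052, and over the 11 arrays with a 75th percentile above 400 it was 0.38 ± 0.051. That fit weights the sexes equally, whereas the 0.42 given above for the same arrays is a plain difference of means.

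**Figure D4:**
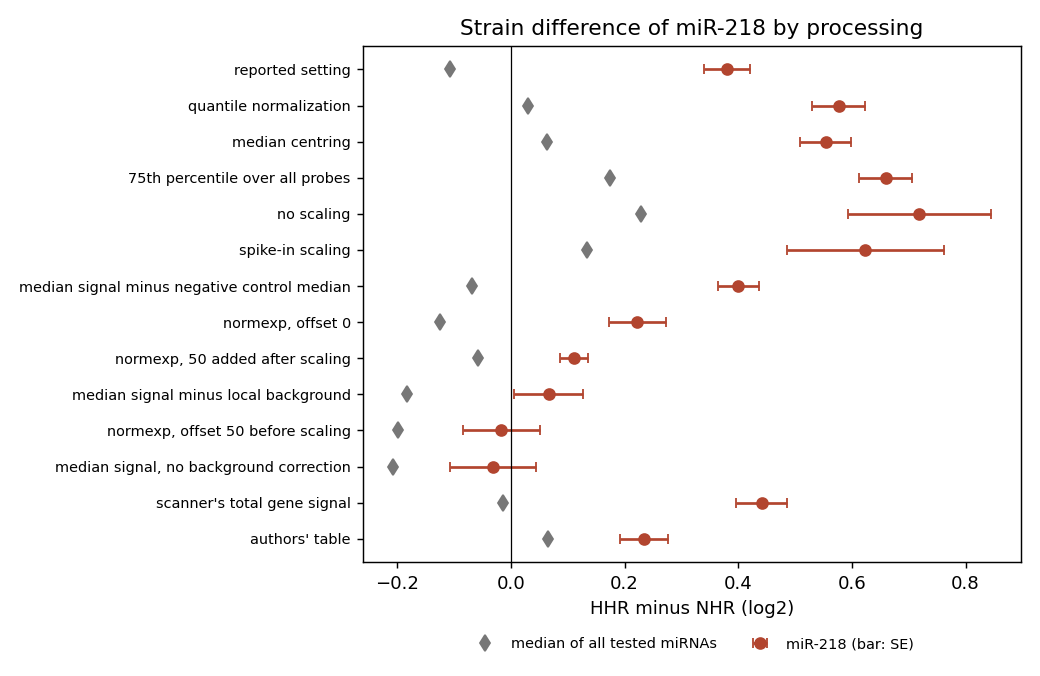
HHR minus NHR difference of miR-218 (log2, circles with SE) and the median difference of the 233 tested miRNAs (diamonds) under each scaling and background setting. miR-218 lies right of the median in every row, and left of 0 with no background correction and with 50 added before scaling.

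The miRNAs most like miR-218 were looked up among the 185 others detected on all arrays. Pearson's r over the 16 arrays measures likeness, but it contains the strain difference for which miR-218 was picked, and the arrays share slides and scaling. The highest values were 0.91 for miR-503, 0.90 for miR-34a, 0.87 for miR-675*, 0.87 for miR-410 and 0.83 for miR-378*. Within a strain these miRNAs parted. miR-503, which comes from the miR-322 and miR-503 cluster and restrains cell cycle genes, kept r = 0.74 in HHR and 0.84 in NHR (n = 8 each). miR-34a, a p53-induced miRNA that in mice rises in the ageing heart, had 0.42 in HHR and -0.093 in NHR. miR-378*, from an intron of Ppargc1b, had -0.26 in HHR and 0.13 in NHR. miR-410 had 0.95 in HHR and 0.38 in NHR, and miR-675* had 0.66 in HHR and 0.53 in NHR.

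Levels of the closest of them show the difference. miR-503 ran from 6.74 to 6.90 in HHR and from 6.44 to 6.74 in NHR (log2), so all HHR arrays were above all NHR arrays, but narrowly. miR-34a ran from 6.67 to 6.94 in HHR and from 5.74 to 5.98 in NHR, a wide gap. Their strain differences were 0.20 ± 0.040 and 0.96 ± 0.048 (SE). The lowest r belonged to miR-532-3p (-0.85), miR-499 (-0.85), miR-532-5p (-0.85), miR-150 (-0.84) and miR-500 (-0.84), which had strain differences from -0.71 to -0.28 on the log2 scale. Of the 5 highest, 3 or 4 stayed among the 5 highest under the other scalings, and of the 5 lowest, 0 to 4 did.

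Once each group's mean was taken off, other miRNAs came first. The deviations of miR-218 were most like those of miR-199a-3p (r = 0.89 over 16 arrays), miR-100 (0.88), miR-101a (0.88), miR-125b-5p (0.87) and miR-199a-5p (0.87). The median over the 185 miRNAs was 0.27, and 49 were above 0.5. miR-199a-3p and miR-199a-5p are arms of one precursor in the Dnm3os transcript of mesenchymal cells. miR-214, from the same transcript, followed at rank 11 (0.79). miR-21, the other marker on the fibroblast and mesenchymal list, had 0.22 at rank 109, below the median of 0.27. With levels in place of deviations, so that the sex difference stays in, r with miR-199a-3p was 0.58 within HHR and 0.95 within NHR. NHR male 1 was the highest of its group for both miRNAs, 0.16 above the group mean for miR-218 and 0.17 for miR-199a-3p. HHR female 2 was the highest of its group, at 0.13 and 0.21, and HHR female 1 the lowest, at -0.10 and -0.21. The deviations of miR-218 had r = -0.15 with those of array brightness. With quantile normalization r with miR-199a-3p was 0.57, beside a median of 0.10 over the 185, and with median centring it was 0.71, beside 0.49. With no scaling and with spike-in scaling the median itself was 0.93 and 0.95, so a high r there does not set a miRNA apart. Under the other scalings, 2 or 3 of the 5 stayed among the 5 highest.

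**Figure D5:**
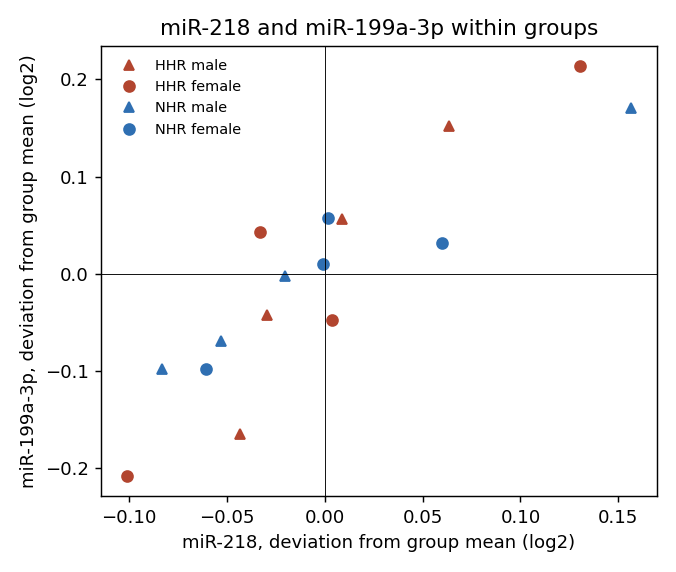
Deviation of miR-218 from its group mean against that of miR-199a-3p (both log2 units) on each of the 16 arrays. The points run from the lower left, with HHR female 1, to the upper right, with HHR female 2 and NHR male 1.

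Other miRNAs of heart and vessel formation were counted beside miR-218. Of 24 names, 20 were tested, with 2 higher and 11 lower in HHR (median difference -0.11), beside 21 higher and 106 lower among all 233 (median -0.11). The called members with the largest differences were miR-10a-5p (-0.37 ± 0.11, limma adjusted p = 0.0113), miR-126*, the passenger arm of an endothelial miRNA (-0.23 ± 0.047, adjusted p = 0.00132), and miR-199a-5p (0.20 ± 0.072, adjusted p = 0.0335). None of the 20 had a difference of larger size than miR-218. These counts turned with scaling, and with the 75th percentile over all probes 17 were higher and 0 lower, beside 134 and 21 of all 233.

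miRNAs that, like miR-218, sit inside protein-coding genes were counted in the same way. Of 40 names 39 were on the array and 32 were tested, with 4 higher and 16 lower in HHR (median -0.082), beside 9.01% higher and 45.5% lower among all 233. The largest called differences were those of miR-338, from Aatk (0.57 ± 0.099, limma adjusted p = 4.81e-04), and of miR-378 and miR-378*, from Ppargc1b (0.41 ± 0.034, adjusted p = 3.26e-07, and 0.37 ± 0.037, adjusted p = 1.91e-06). Within this list, miR-338 and miR-378 were the 2 members with a difference larger in size than that of miR-218. The list does not hold every miRNA inside a protein-coding gene. The cluster within Clcn5 is not on it, and its miR-500 (-0.71 ± 0.033), miR-532-3p (-0.70 ± 0.054) and miR-532-5p (-0.59 ± 0.029) were lower in HHR by more than that size. miR-338, miR-378 and miR-378* were called as higher in HHR under all 6 scalings. With the 75th percentile over all probes 26 of the 32 were higher and 0 lower, beside 134 and 21 of all 233.

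The labelled tissue was checked by marker miRNAs. miR-1 and miR-133b, the muscle miRNAs, were among the bright ones, at 12.47 and 12.55 (log2) in HHR and 12.57 and 12.70 in NHR. miR-1 had a strain difference of -0.10 ± 0.041 (limma adjusted p = 0.0526) and miR-133a of -0.059 ± 0.027 (adjusted p = 0.0788). miR-499, from the myosin gene Myh7b, was lower in HHR (-0.28 ± 0.027, adjusted p = 1.8e-06), and its difference was above 0 under 2 of the 6 scalings. miR-208, from the cardiac myosin gene Myh6, was detected on 0 arrays, while miR-208* and miR-208b-3p were detected on all 16. The summed level of the 7 cardiomyocyte markers was 11516 to 12963 in HHR and 12276 to 13907 in NHR, and 0 of the 6 tested were called higher and 4 lower, beside 9.01% and 45.5% of all 233. With median centring, no scaling and spike-in scaling, 0 of the 6 were called either way.

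Among other cell types, miR-126 of endothelium was lower in HHR (-0.20 ± 0.026, limma adjusted p = 4.48e-05), and its difference was above 0 under 3 of the 6 scalings. The counts on the lists that follow are small and stand beside 21 higher and 106 lower of all 233. Of the 3 endothelial markers tested, 0 were higher and 2, miR-126 and its passenger arm miR-126*, were lower, and miR-222 was not detected. The third, miR-221, was detected on 8 arrays, with a difference of 0.20 ± 0.090 (limma adjusted p = 0.0780). Under each of the other scalings 1 of the 3 was called higher. Summed levels were 974.8 to 1088 in HHR and 1166 to 1280 in NHR, most of it miR-126 (9.99 and 10.18 on the log2 scale). The smooth muscle pair miR-143 and miR-145 was lower, at sums of 1265 to 1336 in HHR and 1392 to 1477 in NHR. Of the 4 fibroblast and mesenchymal markers, miR-199a-5p was higher and miR-21 lower, and the sums overlapped (3598 to 3992 in HHR, 3645 to 4126 in NHR). Most of that sum was miR-21 (11.18 in HHR and 11.31 in NHR, log2). The differences of miR-199a-3p, miR-199a-5p and miR-214 were above 0 under all 6 scalings, and called as higher under 4, 5 and 5 of them in that order. That of miR-21 was above 0 under 5 and called as higher under 1. Calls on these lists turned with scaling, and with the 75th percentile over all probes 1 of 3 endothelial, 2 of 2 smooth muscle and 4 of 4 fibroblast markers were higher and 0 lower, beside 134 and 21 of all 233. Their part in the miR-218 difference was not tested.

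Neural markers bear on miR-218 because, in mice, motor neurons also make it. Of 8, miR-124, miR-9, miR-137, miR-129, miR-138 and miR-153 were detected on 0 arrays. miR-128, which many tissues hold, had a difference of -0.0075 ± 0.036, and miR-219-5p was lower in HHR (-0.57 ± 0.048, adjusted p = 4.15e-07). The summed level of the 8 was 75.9 to 82.3 in HHR and 76.6 to 83.7 in NHR. Most of that sum was miR-128 (5.82 in HHR and 5.83 in NHR, log2), so it says little about the other neural markers. None of the 7 epithelial markers was detected. Of 3 leukocyte markers tested, miR-150 (-0.53 ± 0.039, adjusted p = 1.05e-07) and miR-223 (-0.47 ± 0.099, adjusted p = 0.00152) were lower in HHR, with sums of 92.1 to 106.9 in HHR and 109.8 to 147.9 in NHR. The third, miR-142-3p, was not called (-0.11 ± 0.092, limma adjusted p = 0.318). Its difference was above 0 under 5 of the 6 scalings and called under 0. The erythroid markers miR-144 and miR-451 gave 0 calls. Of the liver markers, miR-122 was not detected and miR-192 was lower in HHR (-0.82 ± 0.067, adjusted p = 3.45e-07). The differences of miR-219-5p, miR-150, miR-223 and miR-192 were below 0 under all 6 scalings, and were called under 4, 4, 3 and 6 of them in that order.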

How the data were processed

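Total RNA of 16 hearts was labelled with Cy3 and hybridised to Agilent rat miRNA arrays, per the labels' protocols. The intensity of each spot was read with Feature Extraction 10.7.3.1 (grid build rn4), which detrended it over the slide and took off a background but did not scale the arrays to each other, per the file headers. Detection flags, which are other values of 0 or 1, were deposited in the same scanner output. A log2 table that the authors deposited has no stated background correction, scaling or centring, and the submitters' processing notes name limma. It was an alternative only.

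Outlier spots were left out, the spots of a probe were averaged, and arrays were scaled to an equal 75th percentile over 258 probes well above background on all arrays. Probes of a miRNA were averaged, floored at 1.88 (0.91 on the log2 scale) and taken to log2. Of 677 miRNAs, the test took the 233 with detection on 4 or more arrays, and 186 had it on every array and 417 on none. limma 3.58.1 in R 4.3.3 fitted 1 mean per group to all 16 arrays, with Benjamini-Hochberg adjustment over the 233 and a threshold of 0.05. The code was tested on simulated data. The number of arrays limits the precision.

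miR-218 and the lists were chosen with earlier results of these data known. The miRNAs named are miR-218, its star arms and miR-218b; the 5 with the highest and the 5 with the lowest correlation with miR-218 and the 5 with the highest correlation of deviations from group means; up to 3 called members of each list with the largest difference, or else the 2 with the smallest p; the 3 with the smallest p for sex and for the interaction; and miR-1, miR-133a, miR-499, miR-208 and miR-126. Other markers and the neighbours of miR-218 in rank were named after their values were seen. Alternatives covered signal column, background, scaling, filter, floor, probe and spot summaries, variance moderation, array weights, slide, replicate number, array brightness and leaving out each array. Replicate numbers recur in the groups. Deviations of same-numbered arrays correlated at -0.217 to 0.526, with 16 of 24 pairs above 0.1. Other pairs ran from -0.611 to 0.705. These values do not settle whether the numbers pair the animals. The main fit did not pair them, and a replicate block was an alternative.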

Additional observations from a re-analysis of the deposited data

How the results depend on the processing

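The strain difference of miR-218, 0.38 (log2, HHR minus NHR), changed sign with normexp and 50 added before scaling (-0.017) and with no background correction (-0.031). It moved by more than the spread between animals with normexp and nothing added (0.222), 50 added after scaling (0.111), the local background (0.0662), the 75th percentile over all probes (0.659), quantile normalization (0.577), no scaling (0.719), median centring (0.554), spike-in scaling (0.624) and the authors' table (0.234). In the same order, without the table, the difference in males (0.33) was -0.0035, -0.018, 0.193, 0.0929, 0.0654, 0.566, 0.490, 0.576, 0.457 and 0.518, and that in females (0.43) was -0.031, -0.045, 0.251, 0.129, 0.0671, 0.753, 0.663, 0.861, 0.650 and 0.729. The other 16 alternatives moved the difference over both sexes by less than that spread. Leaving out each array in turn gave 0.358 to 0.406 over both sexes, 0.298 to 0.378 in males and 0.390 to 0.467 in females.

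The sex difference (-0.12, male minus female) stayed negative and did not pass the threshold in all 27 alternatives other than leaving out a single array, and was -0.144 to -0.0962 with each array left out, passing only without NHR male 1 (-0.144). In HHR it was -0.206 to -0.129 and in NHR -0.116 to -0.0361 with each array left out. In NHR it changed sign with the 75th percentile over all probes (0.0399), no scaling (0.0034) and median centring (0.00036), none of them past the threshold. The interaction (-0.11) changed sign with 50 added before scaling (0.0271), no background correction (0.0272) and over bright arrays alone (0.0198), and was -0.142 to -0.0559 with each array left out. The number of strain calls was 127 as reported and between 15 (the authors' table) and 165 (50 added before scaling) under other settings. Sex calls rose to 3 among miRNAs detected on all arrays. With the replicate block the strain difference of miR-218 was 0.379 ± 0.045 with 124 strain calls and 1 sex call, and its sex difference had a limma adjusted p of 0.376; 4 of 16 arrays correlated best with an array of their own number. The cause of these changes was not tested. On the dimmest array, the miR-218 signal was 8.41 times the SD of the negative control spots.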
